A study of Homo sapiens with 6 samples.

Results

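Replication-dependent histone genes encode the bulk of the histones that package newly made DNA. The 63 genes described here were picked by a rule on names, set with earlier results of these data known. They are the protein-coding genes whose current symbol begins with H2AC, H2BC, H3C or H4C followed by a number, or is one of H1-1 to H1-5. Of these, 60 had a count, among the 60675 genes that were counted in all and the 19542 of them that are protein-coding. The counts came from PLC/PRF5 cells, a human hepatocellular carcinoma line, with 3 libraries labelled control and 3 labelled MTR4 KD (knockdown of MTR4). The labels give no other treatment, and the study describes the sequenced cells as carrying an inducible short hairpin RNA against MTR4, compared before and after doxycycline. No library of doxycycline-treated cells with a scramble hairpin was analysed here, so the effect of the drug and that of the knockdown cannot be told apart. Total RNA was the stated starting material, and whether libraries were made by poly(A) selection or by removal of ribosomal RNA is not given in the sources used here.

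Unlike other messenger RNAs, those of replication-dependent histones end in a short stem-loop and not in a poly(A) tail. The stem-loop binding protein, SLBP, holds that hairpin, and the U7 small nuclear ribonucleoprotein positions the cut that follows it. The RNAs accumulate in S phase, when DNA is copied, and are degraded when replication stops. MTR4 is an RNA helicase that hands nuclear RNAs to the exosome, a 3′ to 5′ exonuclease. Some histone genes can also be read past the hairpin to a conventional poly(A) site.

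The hairpin was present in every member. It was searched in the annotated transcripts as a stem of 6 fully paired bases around a loop of 4 bases, with G-T pairs allowed. The stem had to begin with GG and 4 bases that are each C or T, and to end with CC. The loop had to be T, then C or T, then T, then any base. The share among other genes holds for this pattern only. All 63 members held it on their principal transcript, and 62 held it within the last 100 bases, against 4 of 19831 other protein-coding genes (0.0202%). Of these 4, H1-6, H3-4 and H3-7 are also histone genes, and the other, ENSG00000282988, overlaps the members H2AC7 and H3C4. In the members it began 22 to 67 bases after the stop codon, with a median of 35. The members shared few forms of it. The first sequence below stood in 38 members, none of them an H4 gene. The second stood in 8 members and the fourth in 4, all of them H4 genes, and the third in 7. The other 6 members had a form of their own. The forms are shown because they define the shared 3′ end, and all 16 letters of each belong to the hairpin.
Form in 38 members: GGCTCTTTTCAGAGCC
Form in 8 H4 members: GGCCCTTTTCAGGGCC
Form in 7 members: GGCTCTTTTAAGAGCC
Form in 4 H4 members: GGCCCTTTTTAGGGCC

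For the members on which the comparison turns, the hairpin is shown in capitals with up to 5 transcript bases on each side, as the annotation gives them from 5′ to 3′. H3C10 and H2BC21 carried the form of the 38 members. H2BC12 carried that of the 7 and H4C9 that of the 4.
H3C10: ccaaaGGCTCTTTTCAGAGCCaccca
H1-2: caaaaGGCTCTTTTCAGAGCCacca
H2BC21: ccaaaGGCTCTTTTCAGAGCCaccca
H2BC12: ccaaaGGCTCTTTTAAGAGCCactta
H4C9: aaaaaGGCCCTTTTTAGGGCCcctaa
In H3C10, H2BC12 and H4C9 the principal transcript ended 5, 5 and 9 bases past the hairpin. In H2BC21 it ran on for 1729 bases.

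MTR4 itself (MTREX, ENSG00000039123) was lower in each MTR4 KD library. Its normalized expression was 72.2, 87.4 and 74.4 CPM (counts divided by the scaled library size in units of 1000000 reads) in the control libraries, listed here and throughout in the order of replicates 1, 2 and 3. In the MTR4 KD libraries it was 44.6, 48.8 and 44.1 CPM, a log2 fold change of -0.77 (SE, the standard error, 0.0897, and adjusted p = 0.00641 by the quasi-likelihood test of edgeR with Benjamini-Hochberg adjustment). Between 60686786 and 72708682 reads per library fell on genes. The libraries fell into separate sets by the share of reads with no unique alignment, split here at 30% and called batches A and B. The labels name no batch, and what set the libraries apart is not known. That share lay between 34.7% and 37.5% in batch A, formed by control libraries 1 and 3 with MTR4 KD library 3. It lay between 14.8% and 18.2% in batch B, formed by the rest. Between A and B 31.5% of all tested genes differed at an adjusted p under 0.05. Values within each batch, or from a fit adjusted for it, are therefore given beside many of the main ones. The cells had strong RNA of hepatocyte genes, with the serine protease inhibitor SERPINA1 between 8406 and 11457 CPM. Of 7 counted markers of immune, stromal and endothelial cells, 2 passed the filter on low counts, and their summed level was 5.32 to 8.27 CPM in control and 3.58 to 8.42 CPM in MTR4 KD libraries. Of the 2, the collagen gene COL3A1 stood at 1.12, 2.17 and 1.46 CPM in control and 0.88, 0.853 and 1.08 CPM in MTR4 KD. Its groups did not overlap, with a log2 fold change of -0.76 (edgeR adjusted p = 0.205), and it was called lower in the batch-adjusted fit, at -0.82 (edgeR adjusted p = 0.0398). Its part in the histone values was not tested. The leukocyte gene PTPRC stood at 1.81 CPM in control library 3 and 0.538 CPM in MTR4 KD library 3, against at most 0.130 CPM in the other libraries.

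Most histone genes were detected weakly. The 60 members together took 0.00685% to 0.00913% of the reads on genes, which is 4422 to 5625 reads per library. In 5 members (H2AC7, H2AC15, H3C4, H4C7 and H4C13) no library held a read, and a count of 0 allows a level of up to 0.0413 to 0.0494 CPM, depending on the library, for counting error only. For H2AC7 and H3C4, 85.3% and 96.6% of the exon bases lie inside exons of another gene in the annotation used here. The files class reads that fit several genes as ambiguous and not with a gene. No library reached 10 reads in 19 members, and 8 members had at least 100 reads in every library. The filter on low counts kept 32 of the 60 (53.3%), against 70.4% of all protein-coding genes. The kept members had a median mean level of 0.681 CPM, against 26.6 CPM for the kept protein-coding genes. By class, 3 of 5 H1, 4 of 15 H2A, 11 of 16 H2B, 6 of 11 H3 and 8 of 13 H4 genes were kept. Of the 32, 5 met the filter level of 0.162 CPM in all 3 MTR4 KD libraries but not in all 3 control libraries, and 2 the other way round. Counts over the kept members therefore describe those genes and not the whole family.

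**Figure D1:**
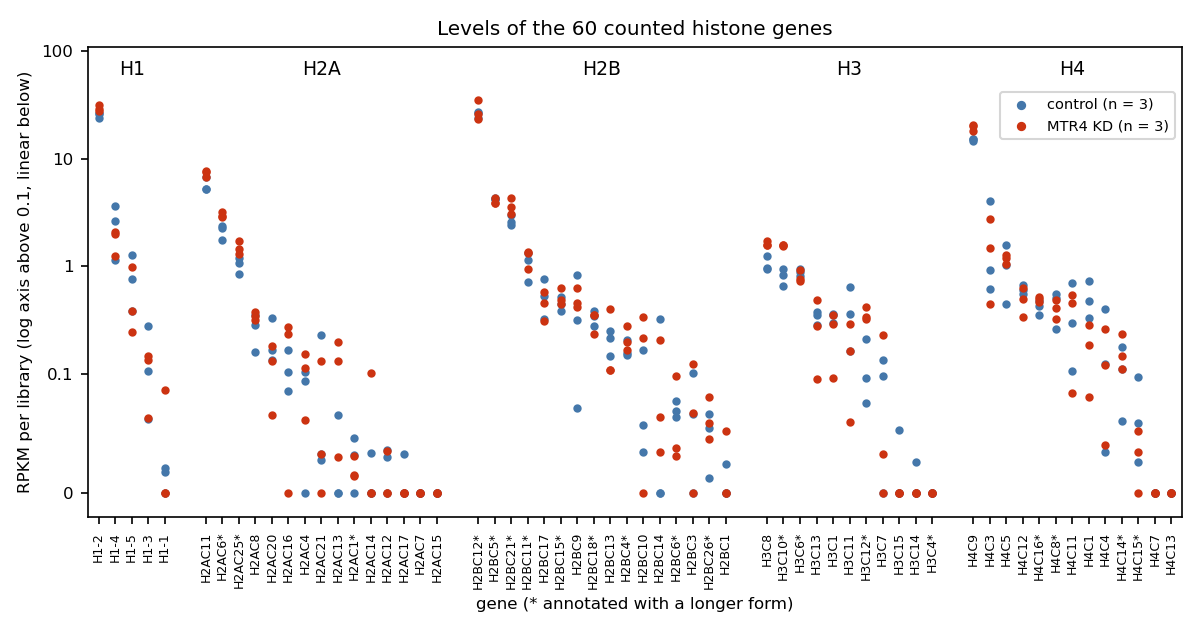
Level of each of the 60 counted histone genes in each library, in reads per kilobase of annotated exon and 1000000 reads (RPKM, log axis above 0.1 and linear below), by histone class and by mean level within it. Blue points are the 3 control and red points the 3 MTR4 KD libraries, and an asterisk marks genes classed as having a longer form. H1-2, H2BC12 and H4C9 stood above 14 RPKM in every library, and every other gene below 8.

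A few genes held most of the histone reads. H1-2, H2BC12, H2BC21, H4C9, H2AC6 and H2BC5 took 68.8% to 73.0% of them in each library. Per kilobase of annotated exon, the linker histone gene H1-2 had the highest mean level, at 27.8 RPKM over the 6 libraries. H2BC12 followed at 27.4 RPKM and H4C9 at 17.4 RPKM, and H1-2 and H2BC12 overlapped in their libraries. H2AC11 came next at 6.54 RPKM and H2BC5 at 4.16 RPKM. H2BC21, H2AC6, H1-4, H4C3 and H3C8 had mean levels of 3.19, 2.57, 2.13, 1.71 and 1.35 RPKM. Per kilobase, the leading H3 gene, H3C8, was thus far below the leading H1, H2B and H4 genes. Its lead among H3 genes depends on the exon length, 496 bases against 2679 in H3C6 and 1250 in H3C10. H3C6 and H3C10 had more reads, with totals of 869 and 571 against 257 in H3C8. Exon lengths came from a later annotation than the one the reads were counted on, so levels per length are approximate. Of the 60 genes, 20 were classed as having a longer form, a grouping made after levels had been seen. In these a transcript runs over 100 bases past the hairpin or lacks it, or the gene spans over 1000 bases in RefSeq, another annotation. H2BC12 and H3C4 were classed by the RefSeq span alone. The filter kept 17 of these 20 (85.0%) and 15 of the other 40 (37.5%). The median total over the 6 libraries was 392 reads in the first set and 29 reads in the second. Among the genes with the highest levels, H1-2, H4C9 and H2AC11 are annotated only with the short form. Whether they also form longer RNAs was not tested. Reads on the short and the longer form of a gene were counted together and cannot be told apart here.

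Summed over the 60 members, the MTR4 KD libraries held somewhat more histone RNA, and 6 genes held most of these reads. The summed level of the 60 members was 76.6, 68.8 and 73.3 CPM in control and 80.7, 81.7 and 91.8 CPM in MTR4 KD. The groups did not overlap, and the nearest libraries were control 1 and MTR4 KD 1. Within batch A the sums were 76.6 and 73.3 CPM in control and 91.8 CPM in MTR4 KD. Within batch B they were 68.8 CPM in control and 80.7 and 81.7 CPM in MTR4 KD. In bulk RNA, a different share of cells in S phase and a different amount of RNA per cell cannot be told apart. Since the library selection is not given, how far these counts measure histone RNAs without a poly(A) tail is not known either. By class, the H2A sum was 7.80 to 9.28 CPM in control and 11.6 to 12.4 CPM in MTR4 KD. The H3 sum was 4.49 to 4.73 CPM in control and 5.45 to 5.92 CPM in MTR4 KD. The H2B sum overlapped, at 26.02 to 29.7 CPM in control and 27.4 to 37.5 CPM in MTR4 KD, and so did the H1 and H4 sums. The H4 sum ran from 9.07 to 11.5 CPM in control and from 11.3 to 12.2 CPM in MTR4 KD.

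Of the 32 tested histone genes, 1 was higher and 0 were lower after MTR4 KD at an adjusted p under 0.05 (edgeR's quasi-likelihood test, Benjamini-Hochberg over all 18075 tested genes). Of all tested genes 1.48% were called higher and 2.12% lower, and 3.6% in either direction, so the count among the members was close to that background. DESeq2's Wald test called 2 members higher, limma-voom 1, and both called 0 lower. At an unadjusted p under 0.05, 9 members were higher and 0 lower, beside 8.93% and 9.84% of all tested genes. In 9 members every MTR4 KD library lay above every control library, and in 0 every one lay below, beside 12.1% and 12.6% of all tested genes. The log2 fold change was positive in 19 (59.4%) and negative in 13, beside 51.1% positive among all tested genes. The median was 0.20, while the median over all tested genes was 0.01. The 5 members that met the filter level in all MTR4 KD but not all control libraries were all positive. The 2 that met it the other way round were negative. With each library left out in turn the members' median lay between 0.024, without control library 3, and 0.22, and it was 0.12 without the filter on low counts. The median was 0.22 without the 6 tested members that share most of their 50-base stretches with another gene. When the fit was adjusted for the batch, 5 members were called higher and 0 lower, beside 9.43% and 10.8% of all tested genes (20.2% in either direction), and the median was 0.23. Blocking by replicate number called 0 members and 4.74% of all tested genes. Requiring a fold change over 2 as well left 0 members and 0.83% of all tested genes. The difference was positive in both batches for 17 members, negative in both for 5 and of opposite sign for 10. The shares of all tested genes with these patterns were not computed. Of the 17 tested members classed as having a longer form, 12 had a positive and 5 a negative log2 fold change, with a median of 0.23. Of the 15 others, 7 were positive and 8 negative, with a median of -0.01. Within batch A the medians were 0.39 for the longer-form set and 0.04 for the others. Within batch B they were 0.16 and 0.25, so the order of the sets was reversed. At an unadjusted p under 0.05 (edgeR), 5 of the 17 and 4 of the 15 were higher.

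**Figure D2:**
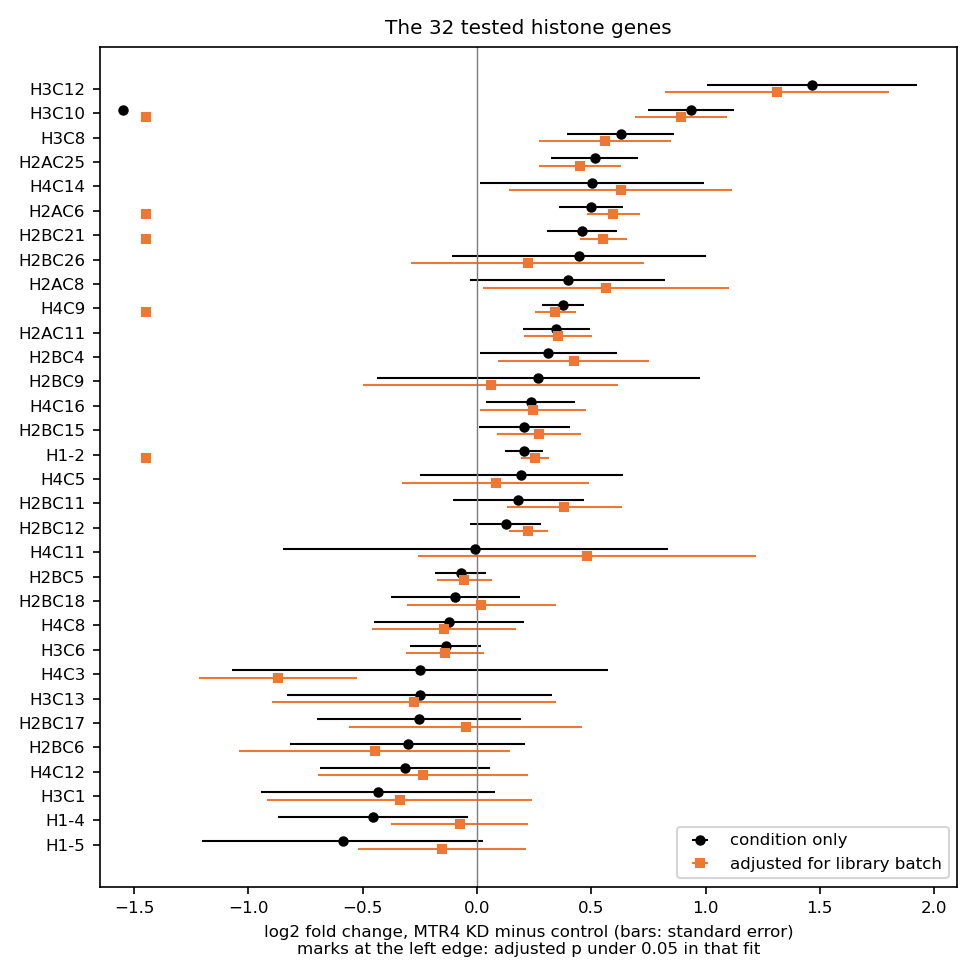
Log2 fold change (MTR4 KD minus control) of each of the 32 tested histone genes with its standard error, from the fit of condition alone (black circles) and from the batch-adjusted fit (orange squares). Marks at the left edge show an adjusted p under 0.05 in that fit. Only H3C10 is marked in both fits, and H1-2, H4C9, H2BC21 and H2AC6 are marked in the batch-adjusted fit.

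H3C10, which encodes a core histone H3, was the member that rose. The gene (ENSG00000278828) lies on chromosome 6 of GRCh38 from 27810051 to 27810536 in the major histone cluster. It had 51, 86 and 63 reads in control replicates 1, 2 and 3 and 118, 132 and 121 reads in MTR4 KD replicates 1, 2 and 3. The levels were 0.827, 1.19 and 1.04 CPM in control and 1.92, 1.98 and 1.97 CPM in MTR4 KD, so the groups did not overlap. The log2 fold change was 0.94 (SE 0.189, edgeR adjusted p = 0.0446). Within batches A and B it was 1.06 and 0.70. Adjusted for the batch it was 0.89 (edgeR adjusted p = 0.0074), and with the replicate number as a block 0.95 (edgeR adjusted p = 0.0517). The adjusted p also exceeded 0.05 when any library but control replicate 2 was left out, with log2 fold changes between 0.81 and 1.06. The annotation holds an H3C10 transcript that runs 769 bases past the hairpin, and none of the gene's exon bases lie in another gene's exons.

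No other H3 gene passed. H3C6, named after its values were seen, had the most reads of the H3 genes, at 148, 158 and 154 in control and 151, 138 and 120 in MTR4 KD. Its groups overlapped, with a log2 fold change of -0.14 (SE 0.155, edgeR adjusted p = 0.691), -0.33 in A and 0.05 in B. The remaining H3 genes had fewer reads. H3C12, which overlaps H2AC17 over 40.3% of its exon bases, had 4, 13 and 5 reads in the control and 18, 24 and 17 reads in the MTR4 KD replicates. It met the filter level in all 3 MTR4 KD libraries but in only 1 control library. The groups did not overlap, and its log2 fold change of 1.47 (SE 0.459) was the largest of the 32 members but did not pass (edgeR adjusted p = 0.148), nor did the batch-adjusted value of 1.31 (edgeR adjusted p = 0.0776). H3C8 had 29, 45 and 29 reads in control and 53, 53 and 48 in MTR4 KD, again without overlap. Its log2 fold change was 0.63 (SE 0.235, edgeR adjusted p = 0.211), and 0.56 after adjustment for the batch (edgeR adjusted p = 0.199). H3C1 showed the other sign, with 11 reads in each control library and 3, 12 and 9 reads in the MTR4 KD libraries. Its groups overlapped, with a log2 fold change of -0.43 (SE 0.512, edgeR adjusted p = 0.707).

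Among the H1 genes, which encode the linker histone that binds DNA between nucleosomes, H1-2 was the most abundant and varied least. Its level was 19.1, 17.7 and 19.7 CPM in control and 21.5, 20.5 and 23.2 CPM in MTR4 KD. The groups did not overlap, with a log2 fold change of 0.21 (SE 0.0832, edgeR adjusted p = 0.246), 0.26 and 0.25 within the batches. Adjusted for the batch, the gene was called higher, at 0.25 (edgeR adjusted p = 0.0102). H1-4 and H1-5 had the largest negative values of the tested members. The control libraries of both were lower in batch B than in A, and so were the MTR4 KD libraries of H1-5, while those of H1-4 did not separate by batch. H1-4 had 177, 65 and 125 reads in control and 61, 111 and 97 in MTR4 KD, a log2 fold change of -0.46 (SE 0.416, edgeR adjusted p = 0.611). Within the batches the H1-4 difference took opposite signs, -0.61 in A and 0.50 in B. H1-5 had 63, 22 and 37 reads in control and 19, 13 and 48 in MTR4 KD, a log2 fold change of -0.59 (SE 0.614, edgeR adjusted p = 0.663). Its batch-adjusted value was -0.15.

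Of the H2A genes, which encode a core histone paired with H2B, all 4 tested had a positive log2 fold change, and 3 of them were named by level or size. H2AC6 stood at 3.81, 2.94 and 3.93 CPM in control and 4.92, 4.76 and 5.40 CPM in MTR4 KD. Its groups did not overlap, with a log2 fold change of 0.50 (SE 0.142, edgeR adjusted p = 0.12). Adjusted for the batch, it was called higher, at 0.60 (edgeR adjusted p = 0.00305). H2AC25, which lies on chromosome 1 outside the major cluster, had 138, 144 and 94 reads in control and 195, 180 and 147 in MTR4 KD. The H2AC25 groups did not overlap, and the log2 fold change was 0.51 (SE 0.189, edgeR adjusted p = 0.205), and 0.45 after adjustment for the batch (edgeR adjusted p = 0.101). H2AC11 stood at 2.61, 2.58 and 3.33 CPM in control and 3.72, 3.77 and 3.34 CPM in MTR4 KD. The lowest MTR4 KD library lay just above the highest control library, with a log2 fold change of 0.35 (SE 0.147, edgeR adjusted p = 0.264), also 0.35 after adjustment (edgeR adjusted p = 0.118).

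The H2B genes showed unequal values. H2BC21, on chromosome 1, stood at 6.73, 5.39 and 5.79 CPM in control and 6.89, 7.97 and 9.74 CPM in MTR4 KD. The groups did not overlap, with a log2 fold change of 0.46 (SE 0.152, edgeR adjusted p = 0.167), and adjusted for the batch it was called higher, at 0.55 (edgeR adjusted p = 0.00223). H2BC21 also differed between the batches. H2BC12, the most abundant H2B gene, had 13.3, 11.9 and 13.6 CPM in control and 11.7, 13.0 and 17.7 CPM in MTR4 KD. Its groups overlapped, and its log2 fold change of 0.13 (SE 0.157, edgeR adjusted p = 0.724) became -0.07 without MTR4 KD replicate 3. H2BC12 shares 57.2% of its 50-base stretches with another annotated gene, and reads without a unique alignment were classed apart from the genes. H2BC5 stood at 3.63, 3.76 and 3.61 CPM in control and 3.37, 3.35 and 3.75 CPM in MTR4 KD. The groups overlapped, with a log2 fold change of -0.07 (SE 0.112, edgeR adjusted p = 0.788). H2BC6 had 11, 12 and 12 reads in control and 6, 17 and 5 in MTR4 KD. Its log2 fold change was -0.30 (SE 0.516, edgeR adjusted p = 0.804), and 28.2% of its exon bases lie in exons of other annotated genes.

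H4 genes encode the core histone that pairs with H3, and H4C9 was their leading member. It stood at 6.03, 6.12 and 5.89 CPM in control and 8.20, 7.98 and 7.24 CPM in MTR4 KD. The groups did not overlap. The log2 fold change was 0.38 (SE 0.0912, edgeR adjusted p = 0.0794), 0.28 in A and 0.40 in B. Adjusted for the batch, H4C9 was called higher, at 0.34 (edgeR adjusted p = 0.0173). H4C3 followed the batch instead, with 23, 118 and 15 reads in control and 37, 75 and 11 in MTR4 KD. Its batch A libraries held the fewest reads in each group, and its log2 fold change of -0.25 had an SE of 0.824 (edgeR adjusted p = 0.904). H4C14, with 7, 15 and 20 reads in control and 17, 14 and 27 in MTR4 KD, had a log2 fold change of 0.50 (SE 0.489, edgeR adjusted p = 0.636). H4C12, with 16, 17 and 13 reads in control and 8, 13 and 15 in MTR4 KD, had one of -0.31 (SE 0.373, edgeR adjusted p = 0.708). The groups of both overlapped, and all 50-base stretches of H4C14 (100%) and 92.6% of those of H4C12 occur in another annotated gene. H4C1, singled out after its values were seen, was too low to be tested. It held 18, 14 and 8 reads in control and 2, 5 and 7 in MTR4 KD, without overlap.

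Of the tested members, 5 differed between batches A and B at an adjusted p under 0.05 (edgeR, with condition in the fit, a test chosen after values were seen), where 31.5% of all tested genes did. These 5 were H4C3, H1-5, H2BC12, H2BC21 and H1-4. H4C3 was lower in A, by a log2 difference of -2.33 (edgeR adjusted p = 0.000239), while H1-5 was higher there by 1.53 (edgeR adjusted p = 0.00683). H1-4, H2BC12 and H2BC21 were higher there by 0.84, 0.35 and 0.31. These 5 genes thus differed between batches in both directions. In H4C3, H1-5, H1-4 and H2BC12 the log2 difference between batches was greater in size than that between conditions. No test of the difference between the batches in the effect of the knockdown passed for a member, where 0.974% of all tested genes did.

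Genes that act on histone RNA were followed as a list. It held 18 genes for transcription, 3′ end formation and decay of histone RNA, and of these 0 rose and 0 fell at an adjusted p under 0.05 (edgeR), with 0 and 2 at an unadjusted p under 0.05. In the batch-adjusted fit 0 rose and 2 fell. These were CSTF2, a cleavage factor, at -0.22 (edgeR adjusted p = 0.00795), and MIF4GD, which binds SLBP, at -0.20 (edgeR adjusted p = 0.0282). SLBP, which binds the hairpin, stood at 106, 92.3 and 102 CPM in control and 89.8, 90.5 and 100.2 CPM in MTR4 KD. Its groups overlapped, with a log2 fold change of -0.10 (SE 0.0778, edgeR adjusted p = 0.564), and -0.04 after adjustment for the batch (edgeR adjusted p = 0.522). NPAT, the coactivator of histone gene transcription, had a log2 fold change of -0.07 (SE 0.0948, edgeR adjusted p = 0.752), with 17.6 to 19.1 CPM in control and 16.1 to 19.4 CPM in MTR4 KD. UPF1, an RNA helicase of histone RNA decay and the most abundant gene of the list, had one of 0.07 (edgeR adjusted p = 0.567). The list's median was 0.00.

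**Figure D3:**
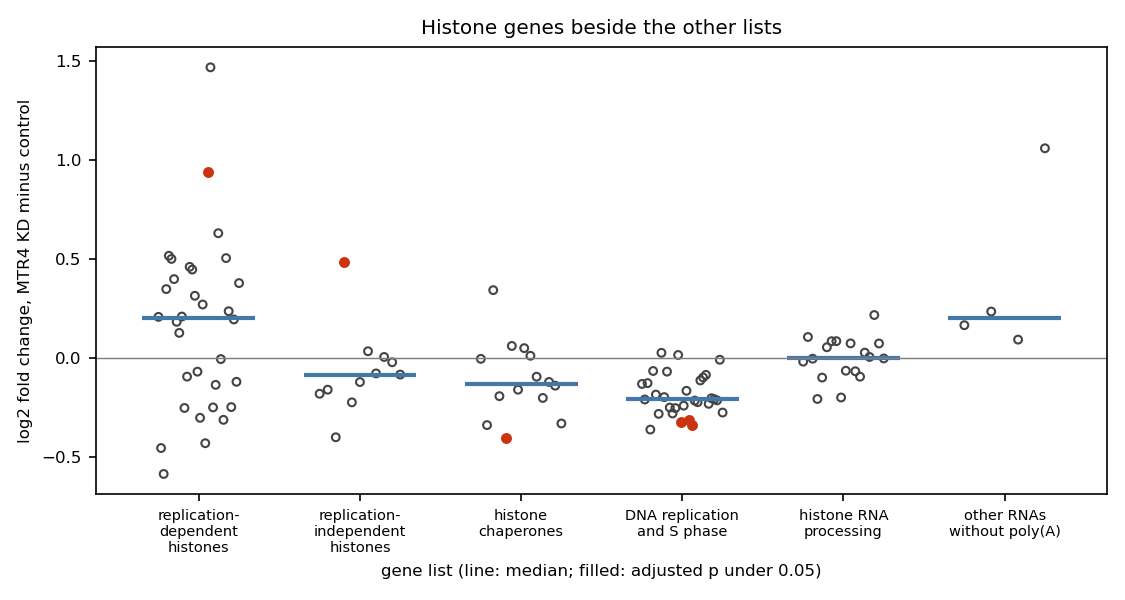
Log2 fold change (MTR4 KD minus control) of the tested genes of 6 lists, 1 point per gene, with the median of each list as a blue line and genes at an adjusted p under 0.05 filled in red. The medians were 0.20 for replication-dependent histones, -0.09 for replication-independent histones, -0.13 for chaperones, -0.21 for DNA replication and S phase, 0.00 for histone RNA processing and 0.20 for other RNAs without a poly(A) tail, and the first of these fell to 0.024 without control library 3.

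Most genes of DNA replication, whose products are made in the same phase of the cell cycle as histones, had a negative log2 fold change. Of 30 tested, 28 had a negative log2 fold change, with a median of -0.21, and 3 fell at an adjusted p under 0.05 (edgeR) while 0 rose. In the batch-adjusted fit 17 fell and 0 rose. MCM6, a subunit of the replicative helicase, stood at 173, 181 and 172 CPM in control and 140, 142 and 133 CPM in MTR4 KD. It fell by 0.34 on the log2 scale (SE 0.0583, edgeR adjusted p = 0.0251). MCM10, an initiation factor, fell by 0.32 (edgeR adjusted p = 0.0435) and MCM5, another helicase subunit, by 0.31 (edgeR adjusted p = 0.0494). No library of either group overlapped the other for MCM6, MCM5 or MCM10.

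Histone chaperones carry histones to DNA. Of 14 tested, 10 had a negative log2 fold change, with a median of -0.13, and 1 fell while 0 rose at an adjusted p under 0.05 (edgeR). CHAF1B, a subunit of the assembly factor that works behind the replication fork, stood at 55.4, 55.5 and 58.8 CPM in control and 45.6, 43.5 and 38.9 CPM in MTR4 KD. It fell by 0.41 on the log2 scale (SE 0.0746, edgeR adjusted p = 0.0326). In the batch-adjusted fit 7 chaperone genes fell and 0 rose.

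Replication-independent histone genes, whose RNAs mostly carry a poly(A) tail, are also expressed outside S phase. Of 11 tested, 8 had a negative log2 fold change, and 1 rose while 0 fell at an adjusted p under 0.05 (edgeR). The one that rose was H2AJ, an H2A variant gene, at 16.9, 19.3 and 17.1 CPM in control and 24.6, 25.8 and 24.1 CPM in MTR4 KD. Its log2 fold change was 0.48 (SE 0.0822, edgeR adjusted p = 0.025). In the batch-adjusted fit 1 rose and 3 fell. H2AJ was again the gene that rose.

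Other RNAs that end without a conventional poly(A) tail could hardly be followed. Of the 11 counted, 4 passed the filter and 0 were called, with 0 at an unadjusted p under 0.05 in either direction. The processing RNA RMRP and the Y RNAs RNY1 and RNY3 had no read in any library. The nuclear long RNA MALAT1 was the most abundant, at 396, 818 and 466 CPM in control and 695, 688 and 499 CPM in MTR4 KD, a log2 fold change of 0.16 (SE 0.27, edgeR adjusted p = 0.798). Its level followed the library batch in both groups. The small nuclear RNA RN7SK also followed the batch, in the other direction, with 28.9, 3.84 and 16.2 CPM in control and 7.95, 8.97 and 35.2 CPM in MTR4 KD. Its log2 fold change was 0.09 (SE 0.784, edgeR adjusted p = 0.964). In the batch-adjusted fit RN7SK was the 1 gene of the list called, higher at 0.83 (edgeR adjusted p = 0.00611), with 0.70 in A and 1.13 in B. Of 10 hepatocyte and hepatoma genes, 3 rose and 0 fell, and 5 rose and 0 fell in the batch-adjusted fit. The 3 were the transport protein genes TTR, APOA1 and ALB, with log2 fold changes of 0.88, 0.52 and 0.29 (adjusted p = 0.00693, 0.00921 and 0.048, edgeR).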

How the data were processed

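Raw read counts per gene were deposited by the authors for each of the 6 libraries, without normalization. The sources name HISAT2 2.1.0, HTSeq, GRCh38 and Ensembl release 84, and the strand setting of the counting is not given in the sources used here. Members and gene lists were chosen with earlier results of these data known. Symbols, transcripts and exon lengths came from GENCODE release 44 lifted to GRCh37, and positions from RefSeq on GRCh38. The annotation held no counted identifier for 3 members (H2AC19, H3C2 and H3C3), and 5 genes that RefSeq adds by the same rule (H2AC18, H2BC7, H2BC8, H4C2 and H4C6) were not analysed here. Genes were filtered by edgeR's filterByExpr (minimum count 10, 18075 kept), scaled by TMM and tested with edgeR 4.0.16 (R 4.3.3, quasi-likelihood, condition only, Benjamini-Hochberg, called at adjusted p under 0.05). DESeq2 1.42.0 and limma 3.58.1 served for alternatives, Python 3.11.15 with pandas 2.3.3 for tables, and the fit was tested on simulated data. Entries that name no gene were left out, among them 14.8% to 37.5% of entries with no unique alignment. Named members are those called, the 10 with the highest level per kilobase, and the 5 with the largest log2 fold change in each direction. MTREX, SLBP, NPAT and, of other lists, at most 5 called genes per direction, or else the gene with most counts, are also named. RN7SK, RMRP, RNY1, RNY3, PTPRC, COL3A1, SERPINA1, CSTF2, MIF4GD, H3C6 and H4C1 were named after values were seen. The labels do not say that replicates came from separate cultures, so p-values measure the spread between these libraries, which may be technical. Replicates of a group differed beyond counting noise (chi-square per degree of freedom 4.54 to 83.1).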

Additional observations from a re-analysis of the deposited data

Results flagged for a closer look

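In 4 tested histone genes every MTR4 KD library lay on one side of the control libraries within batch A (more reads without a unique alignment) and on the other side within batch B. The share of all tested genes with this pattern was not computed, so the count is not a result about histone genes. Each batch holds a single library of 1 condition, so such a pattern needs few libraries, and edgeR's test of the difference between the batches passed for none of the 4. The log2 fold change within A minus that within B was -1.12 for H1-4 (edgeR adjusted p = 0.321), 0.21 for H2BC5 (edgeR adjusted p = 0.826), 1.17 for H4C5 (edgeR adjusted p = 0.661) and 1.67 for H2BC9 (edgeR adjusted p = 0.611). H4C5 and H2BC9 held 11 to 47 and 2 to 28 reads per library.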

How the results depend on the processing

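The 650 genes called became 1363 with DESeq2's Wald test, 3649 with the library batch as a covariate, 150 with a fold change over 2 required, and 137 to 803 with each library left out in turn. The 1 called member, H3C10, became 0 without a filter on low counts (55 members fitted), 0 with a fold change over 2 required, 2 with DESeq2's Wald test (H3C10 and H4C9), 5 with the batch as a covariate and 0 to 1 with each library left out. It was called only without control replicate 2. The replicate number as a block gave 0 called members and 857 called genes. Deviations of same-numbered libraries of the 2 groups had correlations of -0.24, across batches, and 0.32 and 0.35, within a batch. Differently numbered libraries of the same batch had 0.34 and 0.36. Pairing by number thus cannot be told from the batch here. The median of 0.20 was 0.12 without the filter and 0.024 to 0.22 with each library left out. It was lowest without control replicate 3 and was 0.09 without MTR4 KD replicate 3. The log2 fold change of H4C3 ran from -0.95 to 1.03 with each library left out, with the positive values 1.03 without control replicate 2 and 0.19 without MTR4 KD replicate 3. That of H2BC12 ran from -0.066, without MTR4 KD replicate 3, to 0.25. The causes were not tested. No other named member changed sign under these alternatives. Low counts limit most members, and most have under 100 reads in some library.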
